A study of Auricularia auricula-judae with 2 samples.

Results

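The genes described here encode the proteins of the cytosolic 60S subunit, the larger part of the ribosome, as measured in fruit bodies of Auricularia auricula-judae, an edible mushroom known as wood ear. They were chosen by description and level: the assembled genes whose Swiss-Prot description opens with "60S ribosomal protein" or "60S acidic ribosomal protein" were taken. The isoforms of each gene were summed, and a gene was kept where its values in a pair of columns with no named unit or sample added up to 100 or more, a sum called scaled reads here. The second of these columns was taken as the irradiated library and the first as the control library, after the order in which the authors' deposited comparison names the groups. As a check, the larger column belonged to the library with the larger FPKM in 11886 of 11886 transcripts that were 2-fold apart by the pair and above 0 FPKM in both libraries. The rule kept 46 of 494 genes of these names, out of 8249 genes of any name that reach the same minimum. Of the 46 genes, 18 averaged 100 FPKM or more across the libraries and are called abundant copies, and 28 lay below that mean and are called weak copies. FPKM counts sequenced fragments per kilobase of a transcript, relative to all fragments of its library.

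The large subunit joins amino acids at its peptidyl transferase centre and lets the growing chain leave through an exit tunnel. Its proteins sit on ribosomal RNA, which carries out the chemistry, and a flexible stalk built on the protein P0 draws in the elongation factors. Growing fungal cells express the ribosomal protein genes strongly and largely together, since each ribosome holds about equal numbers of most of these proteins.

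The study had 1 library per group. The irradiated library came from fruit bodies grown from mycelium exposed, on potato dextrose agar, to 200 Gy of gamma rays. The control library came from fruit bodies of mycelium that was not irradiated. Both groups were otherwise raised alike, on sawdust mixed with rice bran and then under cooler, humid fruiting conditions, and RNA was taken from homogenised fruit bodies, so the dose was given to mycelium and not to the sampled tissue. The labels do not give the strain or say how many fruit bodies went into a library. With 1 library per group replicate error cannot be estimated, and the groups were compared without a test. The interval given beside a ratio is an exact Clopper-Pearson 95% interval on the ratio of the authors' scaled values, rounded and treated as counts, which no label or header says they are. It covers counting error only, and it can miss the FPKM ratio, which is on another scale.

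The abundant 60S genes were higher in the irradiated library in 17 of 18 cases. Their summed level was 16984.8 FPKM in the irradiated library and 11172.5 FPKM in the control library, 1.52-fold higher. It made up 1.73% and 1.15% of all FPKM in these libraries. RPL10A (TBIU054848) alone gave 3405 FPKM of the irradiated sum and 1491 FPKM of the control sum. The median log2 ratio of irradiated over control was 0.65 over the 18 genes, computed from FPKM + 1, with a range of -0.22 to 1.19. Over all 8249 genes the median was 0.10, and over the 1856 of them that averaged 100 FPKM or more it was 0.06. Relative to the overall shift of 0.10, 16 of the 18 genes were higher, with a median of 0.55, as were 47.3% of the genes averaging 100 FPKM or more. A log2 ratio above 0 was found in 55.9% of all genes, and in 53.7% of those averaging 100 FPKM or more. The genes were selected on levels in these same 2 libraries, so all counts and medians here are descriptions. In bulk RNA, a difference in the share of cells that express a gene and a difference in its RNA per cell cannot be told apart.

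**Figure D1:**
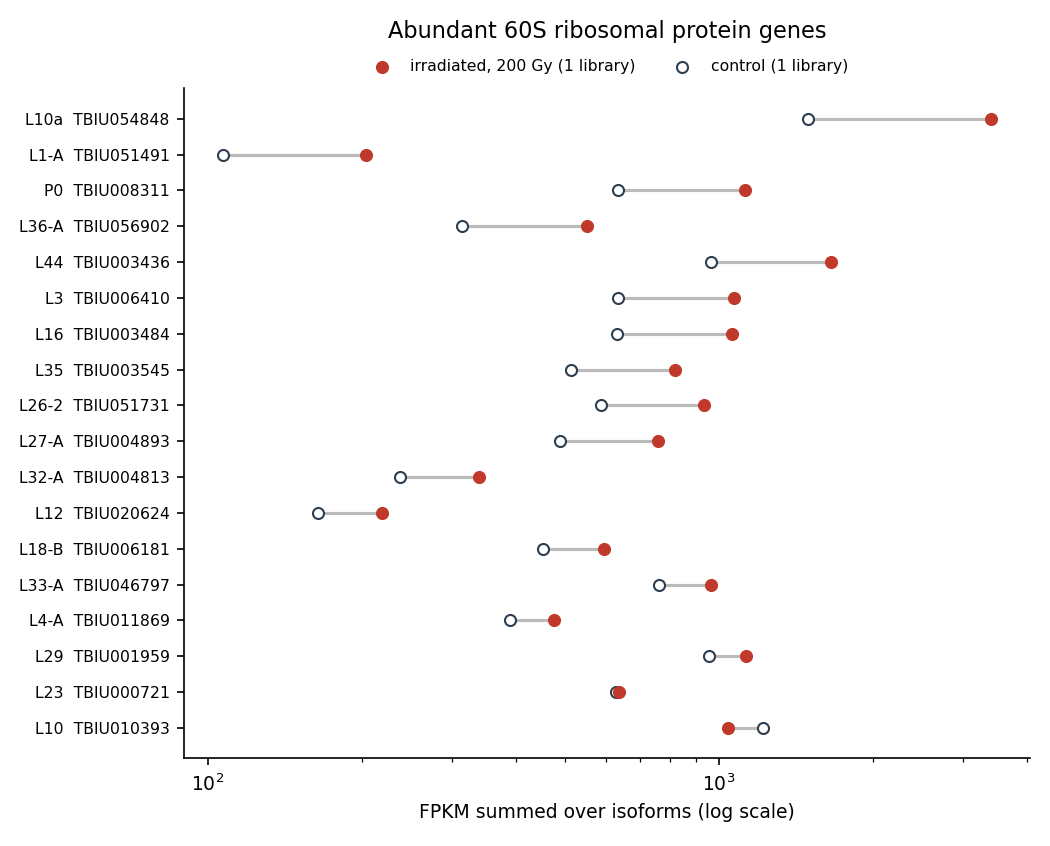
FPKM of the 18 abundant 60S ribosomal protein genes on a log axis, in the irradiated library (filled) and the control library (open), ordered by log2 ratio with the highest at the top. L10a, at 3405 FPKM in the irradiated library and 1491 FPKM in the control library, has the widest gap upward, and L10 at the bottom is the one gene with the irradiated library on the left.

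At the stalk and its base, P0 (p0, TBIU008311), the protein that anchors the P1 and P2 stalk proteins, had 1124 FPKM in the irradiated library and 635 FPKM in the control library. Its log2 ratio was 0.82, with an interval of 0.70 to 0.79. L12 (RPL12, TBIU020624), which binds ribosomal RNA next to P0, had 219 FPKM in the irradiated library and 165 FPKM in the control library, a log2 ratio of 0.41 (interval 0.26 to 0.41). The abundant genes of the stalk base were therefore both higher in the irradiated library, with P0 further from the control than L12. Their weak copies went both ways. A P0 gene (rpp0, TBIU014430) was higher, at a log2 ratio of 1.09. Another P0 gene (RPP0, TBIU027180, -1.95) and an L12 gene (RPL12, TBIU011156, -0.11) were lower. The P0 gene at -1.95 passed the minimum only through the control library, with 20.3 scaled reads in the irradiated library and 103 in the control library. No gene named P1 or P2 reached the minimum: the 6 P1 genes together had 27.1 scaled reads in the irradiated library and 52.7 in the control library, and the 8 P2 genes had 52.3 in the irradiated library and 85.9 in the control library.

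RPL12 was the abundant gene with the most isoforms, 8, which did not all differ in the same direction. Its isoform with the most scaled reads, TBIU020624, had 103 FPKM in the irradiated library and 68.5 FPKM in the control library (log2 ratio 0.58). The next, TBIU020621, had 73.6 FPKM in the irradiated library and 50.4 FPKM in the control library. Those 2 isoforms thus followed the gene as a whole. Isoform TBIU020627 went the other way, at 11.2 FPKM in the irradiated library and 18.0 FPKM in the control library (log2 ratio -0.64). In the irradiated library the isoforms TBIU020630, TBIU020620 and TBIU020628 had values of 0, against 3.39, 2.1 and 0.49 FPKM in the control library. How reads were divided between such isoforms is not stated in the labels or headers.

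On the opposite side of the subunit, the L1 stalk guides spent transfer RNA out of the ribosome. Its protein is called L10a in animals and L1 in yeast, and 2 abundant genes carry these names. RPL10A (TBIU054848) had 3405 FPKM in the irradiated library and 1491 FPKM in the control library, a 2.28-fold difference and the highest log2 ratio of the abundant copies, 1.19 (interval 1.06 to 1.23). It was also the highest of the 18 genes in both libraries. The second gene, rpl1a (TBIU051491), was the lowest of the 18 in both libraries, with 204 FPKM in the irradiated library and 107 FPKM in the control library (log2 ratio 0.92, interval 0.63 to 1.11). The level of RPL10A rests on a short target: it had 1.11 scaled reads per FPKM, a measure that grows with the usable length of the transcript, against a median of 8.25 over the abundant copies. The second gene had 2.05. RPL10A was the only abundant copy 2-fold or more above the control, and 0 of the 18 were 2-fold or more below it. Among all 8249 genes, 9.32% were 2-fold or more above the control and 8.68% were 2-fold or more below it, and among those averaging 100 FPKM or more the shares were 5.44% and 10.0%.

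Around the catalytic centre the genes differed in direction. L3 (rpl3, TBIU006410), which reaches towards the peptidyl transferase centre, had 1068 FPKM in the irradiated library and 634 FPKM in the control library, a log2 ratio of 0.75 (interval 0.63 to 0.73). L10 (RPL10, TBIU010393), a protein that joins the subunit late, in the cytoplasm, and is a different protein from L10a, had 1042 FPKM in the irradiated library and 1218 FPKM in the control library. Its log2 ratio of -0.22 (interval -0.34 to -0.27) was the one negative value among the abundant copies. L10 ranked 7 among the 18 genes by FPKM in the irradiated library and 2 in the control library. It was also the gene with the most scaled reads, 13500 in the irradiated library and 16700 in the control library. That depth narrows counting error only. Variation between libraries could not be measured with 1 library per group, and the difference of L10 from the other abundant genes was not tested.

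The proteins near the exit site of transfer RNA also stood at different ratios. L44 (RPL44, TBIU003436), called L36a in mammals, had 1656 FPKM in the irradiated library and 964 FPKM in the control library, a log2 ratio of 0.78 (interval 0.66 to 0.77). L29 (rpl29, TBIU001959), a small basic protein, had 1127 FPKM in the irradiated library and 956 FPKM in the control library, a log2 ratio of 0.24 (interval 0.10 to 0.24). The 2 genes were about level in the control library, and their intervals do not overlap.

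The abundant genes described here for proteins of the exit tunnel were on the higher side, as were 17 of the 18 abundant genes. L4 (rpl4a, TBIU011869), which reaches into the tunnel wall, had 476 FPKM in the irradiated library and 389 FPKM in the control library (log2 ratio 0.29, interval 0.16 to 0.27). L26 (RPL26B, TBIU051731), near the tunnel exit, had 934 FPKM in the irradiated library and 587 FPKM in the control library (log2 ratio 0.67, interval 0.52 to 0.67). L35 (Rpl35, TBIU003545), also at the exit, where new chains meet targeting factors, had 819 FPKM in the irradiated library and 513 FPKM in the control library (log2 ratio 0.67, interval 0.55 to 0.65). The 2 genes of the exit rim thus stood at almost the same ratio, above that of L4.

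L23 (rpl23a, TBIU000721), which lies on the face that meets the small subunit, was nearly level, with 637 FPKM in the irradiated library and 628 FPKM in the control library. Its log2 ratio of 0.02 becomes -0.08 relative to the shift of all genes and -0.05 in the authors' scaled values, and its interval of -0.13 to 0.04 is the only one among the abundant copies that covers 0. Of the other 17 intervals, 16 lay wholly above 0 and that of L10 wholly below it. These intervals cover counting error only and narrow with the number of scaled reads, so in well-covered genes even a small difference can leave 0 outside. No such share was computed for genes of any name, so these counts do not set the abundant copies apart from other genes.

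The remaining abundant genes encode proteins that bind ribosomal RNA in the body of the subunit. L36 (rpl36a, TBIU056902) had 551 FPKM in the irradiated library and 314 FPKM in the control library, a log2 ratio of 0.81. L16 (crp-46, TBIU003484), called L13a in mammals, had 1061 FPKM in the irradiated library and 631 FPKM in the control library (log2 ratio 0.75). L27 (rpl27a, TBIU004893) had 761 FPKM in the irradiated library and 488 FPKM in the control library (log2 ratio 0.64). These 3 genes were close to the median of the abundant copies or above it. Lower ratios belonged to L32 (rpl32a, TBIU004813, 0.51), L18 (rpl18b, TBIU006181, 0.40) and L33 (RPL33A, TBIU046797, 0.34), the last of which is called L35a in mammals. L32 had 339 FPKM in the irradiated library and 238 FPKM in the control library. L18 had 597 FPKM in the irradiated library and 452 FPKM in the control library. L33 had 965 FPKM in the irradiated library and 761 FPKM in the control library, so a high level did not go with a high ratio in each case. The lower and upper quartiles of the log2 ratio were 0.36 and 0.77 over the 18 abundant genes. Over the 1856 genes of any name averaging 100 FPKM or more they were -0.38 and 0.46.

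**Figure D2:**
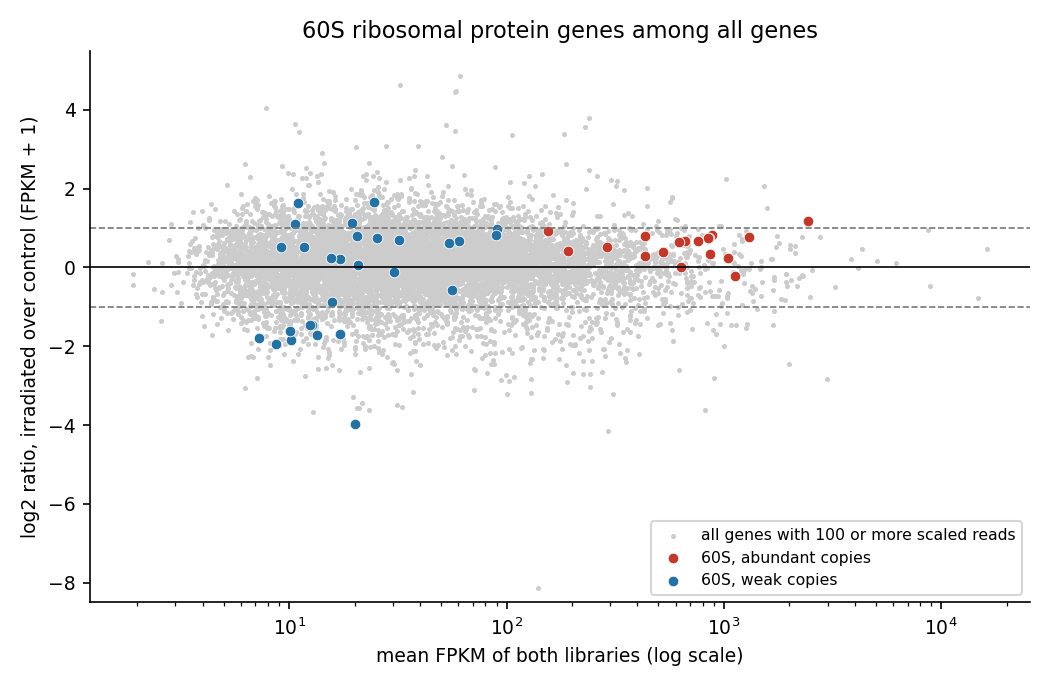
Log2 ratio of irradiated over control, from FPKM + 1, against mean FPKM on a log axis, for all 8249 genes (grey), the 18 abundant 60S genes (red) and the 28 weak 60S genes (blue), with dashed lines at a 2-fold difference. The red points form a band mostly above 0 with a median of 0.65, and the blue points spread from -3.98 to 1.67.

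The weak copies went both ways. Of the 28 genes, 4 were 2-fold or more above the control in the irradiated library, 9 were 2-fold or more below it and 15 were within 2-fold. The excess on the lower side depends on the minimum of 100 scaled reads: with no minimum 212 weak copies were 2-fold or more above the control and 144 below it, of 476. With a pseudocount of 5 in place of 1, 2 of the 28 were 2-fold or more above the control. Over the 28 genes the log2 ratios had a median of 0.22. Among the 6393 genes of any name that averaged under 100 FPKM, 10.4% were 2-fold or more above the control and 8.29% were 2-fold or more below it, and their median was 0.12. The weak copies together had 778 FPKM in the irradiated library and 675 FPKM in the control library, and the abundant copies held 96.5% of the scaled reads of the 46 genes.

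**Figure D3:**
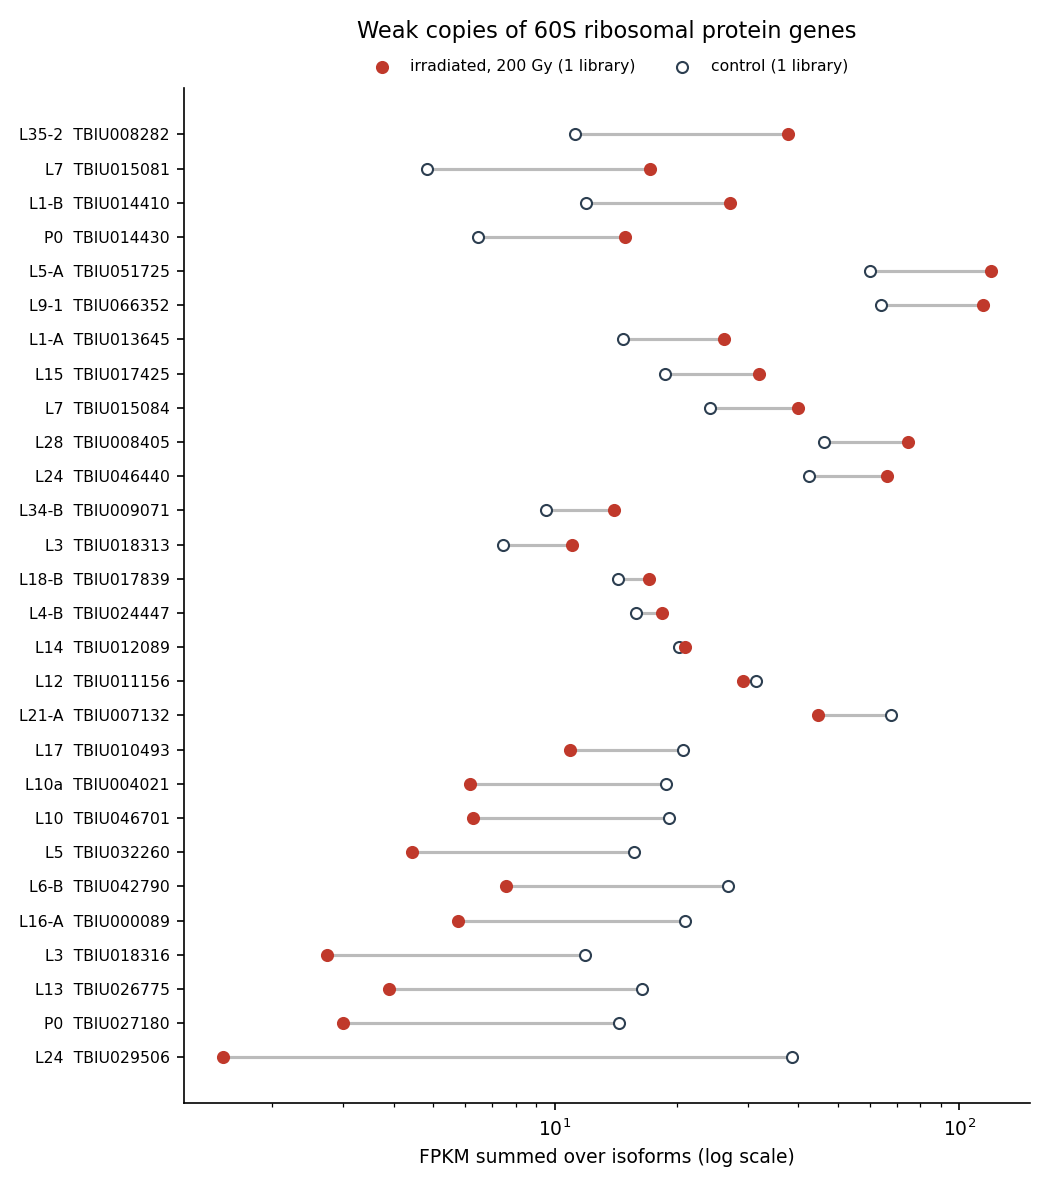
FPKM of the 28 weak 60S ribosomal protein genes on a log axis, in the irradiated library (filled) and the control library (open), ordered by log2 ratio with the highest at the top. The 9 genes at the bottom, from L10a to L24, have 1.51 to 7.56 FPKM in the irradiated library and 11.84 to 38.65 FPKM in the control library.

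Each of the 9 lower weak copies had a single isoform. They carried 9 different protein names and came from 9 different clusters of the assembly, as the opening of each assembly name shows. Their scaled reads were 3.87 to 28.1 in the irradiated library and 81.7 to 111 in the control library. The minimum and the 2-fold limit set these ranges in part, so they are no shared trait of the genes. Of the other 19 weak copies 8 had a single isoform. The 9 genes passed the minimum through the control library: 2 times the irradiated value reached 100 scaled reads in 0 of them, and 2 times the control value did so in all 9. A gene of this depth kept in that way had to differ, so their number says nothing about 60S genes at large.

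The furthest below the control was an L24 gene (RPL24, TBIU029506), whose protein forms a bridge to the small subunit. It had 1.51 FPKM in the irradiated library and 38.65 FPKM in the control library, a log2 ratio of -3.98 (interval -6.59 to -3.29). A second RPL24 gene (TBIU046440) had 66.1 FPKM in the irradiated library and 42.6 FPKM in the control library (log2 ratio 0.62, interval 0.27 to 0.88). The 2 genes therefore had almost equal levels in the control library and stood on opposite sides of it in the irradiated library. The other 8 lower genes had log2 ratios of -1.95 to -1.47. Among them were RPP0 (TBIU027180), a P0 gene, at 2.99 FPKM in the irradiated library and 14.4 FPKM in the control library, and RPL13 (TBIU026775) at 3.89 FPKM in the irradiated library and 16.4 FPKM in the control library. RPL3 (TBIU018316) had 2.73 FPKM in the irradiated library and 11.8 FPKM in the control library. RPL16A (TBIU000089), RPL6B (TBIU042790) and RPL5 (TBIU032260), whose protein carries the 5S ribosomal RNA, had log2 ratios of -1.70, -1.70 and -1.62. RPL10 (TBIU046701) and RPL10A (TBIU004021) were both at -1.47.

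The 4 weak copies 2-fold or more above the control were thinly covered too. RPL35B (TBIU008282) had 37.8 FPKM in the irradiated library and 11.2 FPKM in the control library, a log2 ratio of 1.67 (interval 0.96 to 2.18). An L7 gene (rpl-7, TBIU015081) had 17.2 FPKM in the irradiated library and 4.83 FPKM in the control library, a log2 ratio of 1.64 (interval 1.02 to 2.32). An L1 gene (rpl1b, TBIU014410) had 27.1 FPKM in the irradiated library and 11.9 FPKM in the control library, and its log2 ratio of 1.12 came within 2-fold, at 0.92, with a pseudocount of 5. A P0 gene (rpp0, TBIU014430) had 14.9 FPKM in the irradiated library and 6.47 FPKM in the control library, and its log2 ratio of 1.09 came within 2-fold, at 0.99, relative to the shift of all genes. By its isoform with the most scaled reads alone, RPL35B was also within 2-fold, at 0.98. In these, 2 times the irradiated value reached 100 scaled reads in all 4, and 2 times the control value in 1 of them, so here the irradiated library carried most of them over the minimum.

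Weak copies with more reads stood near the abundant genes. Of the 7 weak copies with 200 or more scaled reads, 6 were higher in the irradiated library, and the log2 ratios of the 7 ran from -0.11 to 0.98. Among all 8249 genes, 55.9% were higher in the irradiated library, and no share was computed for genes of like depth. The L5 gene rpl5a (TBIU051725), whose protein carries the 5S ribosomal RNA into the subunit, had 120 FPKM in the irradiated library and 60.2 FPKM in the control library (log2 ratio 0.98, interval 0.73 to 1.12). At a mean of 90.1 FPKM it was the weak copy nearest to the limit between the classes, followed by RPL9B (TBIU066352) at 89.2 FPKM (log2 ratio 0.83), and the nearest abundant copy was rpl1a (TBIU051491) at 155.6 FPKM. An L28 gene (RpL28, TBIU008405) had 74.8 FPKM in the irradiated library and 46.4 FPKM in the control library (log2 ratio 0.68, interval 0.48 to 0.76). The weak copies on the lower side but within 2-fold were L17 (RPL17, TBIU010493, log2 ratio -0.87), L21 (RPL21A, TBIU007132, -0.58) and an L12 gene (RPL12, TBIU011156, -0.11).

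For 9 proteins, abundant and weak copies could be set side by side, taking names known to be equivalent as 1 protein. The weak L3 genes went opposite ways: rpl-3 (TBIU018313) had 10.99 FPKM in the irradiated library and 7.43 FPKM in the control library, a log2 ratio of 0.51, against -1.78 for RPL3 (TBIU018316) and 0.75 for the abundant L3 gene. The weak L3 genes share an assembly cluster, so they may not be independent. The weak P0 genes also went opposite ways, at 1.09 and -1.95, on either side of the abundant gene at 0.82. For L10a and L1, weak genes stood at 1.12, 0.79 (rpl1a, TBIU013645) and -1.47, beside abundant genes at 1.19 and 0.92. For L16 the weak gene was at -1.70 and the abundant gene at 0.75, and for L10 the weak gene was at -1.47 and the abundant gene at -0.22. For L4 and L18 the weak genes (rpl4b, TBIU024447, and rpl18b, TBIU017839) had log2 ratios of 0.20 and 0.24, close to 0.29 and 0.40 in the abundant genes. The weak genes of L3, P0, L10a, L16 and L10 at log2 ratios of -1.47 or lower passed the minimum only through the control library. Kept in that way they had to differ, so their distance from the abundant genes is no result about copies. Reads shared between copies of a protein were not tested. Of the 9 lower weak copies, 5 belong to a protein with an abundant copy and 4 to a protein without one. Over all 28 weak copies, 13 belong to a protein with an abundant copy, and the shares were not compared by a test.

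**Figure D4:**
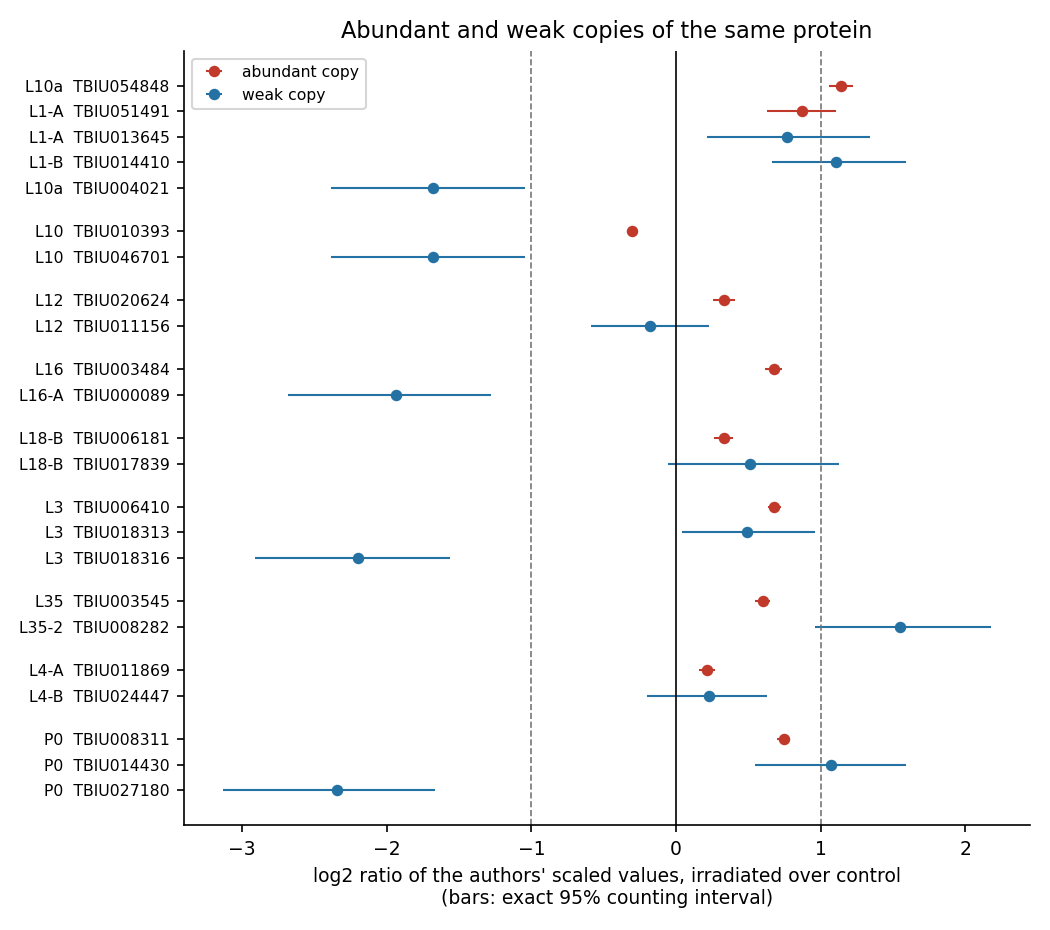
Log2 ratio of the authors' scaled values, irradiated over control, for the abundant (red) and weak (blue) copies of the 9 proteins that have both, with exact 95% counting intervals as bars and dashed lines at a 2-fold difference. Single weak copies of L10a, L10, L16, L3 and P0 lie left of -1, apart from the other copies of the same protein. These copies passed the minimum only through the control library, so they had to differ.

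Most 60S proteins by name had no abundant copy. The 494 genes fell into 46 names after 7 sets of equivalent names were joined, of which 17 had an abundant copy, 12 had weak kept copies only, and 17 had no gene over the minimum. The last group included L2, L8, L11, L19, L30 and L31. Names such as L8 and L28, which stand for different proteins in yeast and in animals, were left as written, so 1 protein can appear under more than 1 name. Descriptions go by the closest Swiss-Prot match, so a gene matched under another name is not counted. Of these, 3 genes in the table, which the rule leaves out because their descriptions open with other words, were abundant: the L40 genes, fused to ubiquitin (UBI1), had 1265 FPKM in the irradiated library and 960 FPKM in the control library (TBIU002505, log2 ratio 0.40), and 604 FPKM in the irradiated library and 538 FPKM in the control library (TBIU002199, 0.17). The L37 gene RpL37a (TBIU003861) had 819 FPKM in the irradiated library and 552 FPKM in the control library (0.57).

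The 448 genes of 60S names under the minimum held few reads: the 46 kept genes had 96.1% of the scaled reads of all 494. Of the 448, 87 had a value of 0 in the irradiated library and 148 in the control library. Of the 56 genes with 50 to 100 scaled reads, 18 were 2-fold or more above the control, 20 were 2-fold or more below it and 18 were within 2-fold. Among the 1716 genes of any name in that range of reads, 13.8% were 2-fold or more above the control and 16.0% were 2-fold or more below it. The log2 ratios of the 20 lower genes ran from -2.49 to -1.18. These too came into the range through the control library: 2 times the irradiated value reached 50 scaled reads in 0 of the 20, and 2 times the control value in all 20. Just inside the minimum were RPL13 (TBIU026775) with 100.1 scaled reads and rpl18b (TBIU017839) with 105.3. Just outside it were RPL19B (TBIU026426) with 99.2 scaled reads and a log2 ratio of -2.04, and RPL28A (TBIU009823) with 98.6 and 0.39.

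The small subunit had a similar make-up. Of 41 genes named 40S ribosomal protein with 100 or more scaled reads, the 21 abundant ones had a median log2 ratio of 0.46, against 0.65 for the abundant 60S genes, and 20 of the 21 were higher in the irradiated library. The summed level of the abundant 40S genes was 1.59-fold higher, against 1.52-fold for the 60S genes. Single genes weigh on both sums. RPS25A (TBIU002740) gave 11418 of 25830 FPKM in the irradiated library and 5912 of 16250 FPKM in the control library. RPL10A (TBIU054848) gave 3405 of the 16984.8 FPKM of the 60S genes in the irradiated library and 1491 of 11172.5 FPKM in the control library. Of the 20 weak 40S copies, 5 were 2-fold or more above the control and 6 were 2-fold or more below it, the lower ones at log2 ratios of -2.06 to -1.30. These 6 also passed the minimum through the control library, since 2 times the irradiated value reached 100 scaled reads in 0 of them and 2 times the control value in all 6. The groups that follow are given over abundant and weak genes together. Taken in that way, the 60S genes had a median of 0.51 and the 40S genes 0.44. Mitochondrial ribosomal proteins, 15 genes, had a median of 0.58, with 0 of them 2-fold apart in either direction. Their 10 abundant genes had a median of 0.62. The 17 genes of ribosome biogenesis and ribosomal RNA processing had a median of 0.47. Of these, 1 gene was 2-fold or more above the control and 0 below it, and the 9 abundant genes had a median of 0.60. Elongation factors, which work on the finished ribosome, had a median of 0.22 over 18 genes, with 0 above the control by 2-fold and 3 below it. Their 11 abundant genes had a median of 0.18. Most of the 18 genes carry the name elongation factor 1-alpha, so the median mainly describes copies of 1 protein. The abundant gene among the lower ones, an elongation factor 2 gene (EFT1, TBIU021425), had 81.6 FPKM in the irradiated library and 186 FPKM in the control library (log2 ratio -1.18). Whether 60S genes differ from these groups was not tested.

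**Figure D5:**
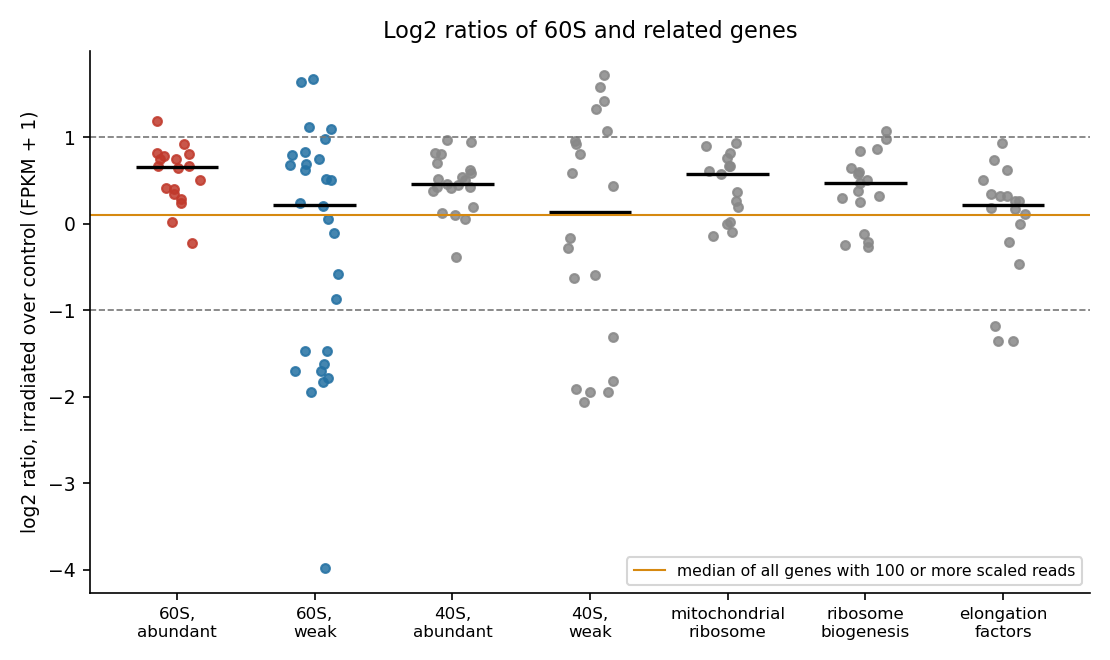
Log2 ratio of irradiated over control, from FPKM + 1, for each gene with 100 or more scaled reads in 7 sets, with black bars at the set medians, dashed lines at a 2-fold difference and an orange line at the median of all genes, 0.10. The 60S and 40S sets both hold a compact abundant class, with medians of 0.65 and 0.46, and a weak class that spreads to both sides of 0. The sets for the mitochondrial ribosome, ribosome biogenesis and elongation factors hold abundant and weak genes together.

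The authors' deposited table gives a q-value of 1 for every transcript. In the authors' deposited table the lowest p-value among the 84 transcripts of the 46 genes is 0.0172, for the RPL12 isoform TBIU020630, which is listed at 0 in the irradiated library.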

How the data were processed

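One table of assembled transcripts covers both libraries, irradiated and control. Per the file headers, its 2 expression columns are FPKM made by the authors, and their headers carry the sample descriptions, which gave each column its group. The authors also deposited 2 values per transcript of no named unit, a pair of scores used here as a measure of depth (the scaled reads), with their log2 ratio and a p-value and q-value for each transcript, per the file headers. No label or header names the assembler, the aligner or the test. The libraries summed to 983895 FPKM (irradiated) and 970111 FPKM (control), and to about 8404057 and 8872431 scaled reads.

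FPKM and scaled values were summed over isoforms (pandas 2.3.3), and log2 ratios used FPKM + 1. No p-value was computed. Intervals are exact Clopper-Pearson 95% intervals on rounded scaled values (SciPy 1.17.1). The 2-fold counting was tested on simulated data. The members and lists were chosen with earlier results of these data known. Genes described one by one were picked by a rule: all stalk proteins, the 5 most abundant, the 5 highest and 5 lowest ratios of each class, and the abundant partner of each named weak copy. The other abundant genes, further weak copies, RPL12 isoforms and genes near the limits were added after their values were seen. Gene names are Swiss-Prot matches, often from distant organisms, and no sequence was used here.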

Additional observations from a re-analysis of the deposited data

How the results depend on the processing

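The abundant class had 1 gene 2-fold or more above the control and 0 genes 2-fold or more below it under each alternative run, and its median log2 ratio stayed between 0.55, when centred on all genes, and 0.67, when split at 50 FPKM. It held 23 genes when split at 50 FPKM, 16 at 200 FPKM, 17 with a minimum of 1000 scaled reads, and 18 otherwise. These alternatives were centring, pseudocounts of 0.1 and 5, the authors' scaled values, the isoform with the most scaled reads, no minimum or a minimum of 1000 scaled reads, splits at 50 and 200 FPKM, 1 gene per protein name, and only genes whose described isoforms all match. Having no minimum, 1 gene per protein name and only matching isoforms left the same 18 abundant genes and median, so these runs were no check on that class. Pseudocounts matter little at levels of 100 FPKM or more. The counts of weak copies depended on the minimum. With no minimum 212 weak copies were 2-fold or more above the control and 144 below it, of 476. Most of these, 170 of the higher and 103 of the lower, had under 20 scaled reads. With a minimum of 1000 scaled reads 0 were higher and 0 lower, of 1. With 1 gene per protein name 2 were higher and 4 lower, of 17, and with a pseudocount of 5, 2 were higher. The median of the weak copies lay between 0.05 (split at 50 FPKM) and 0.68 (minimum of 1000). Centring left 3 weak copies higher, and the main isoform alone gave 11 lower. Of the genes picked by rule, rpp0 (TBIU014430) came within 2-fold at 0.99 when centred, 0.80 with a pseudocount of 5 and 0.97 by its main isoform, rpl1b (TBIU014410) at 0.92 with a pseudocount of 5 and RPL35B (TBIU008282) at 0.98 by its main isoform. No paired analysis was possible because each group has 1 library.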
